A study of Homo sapiens with 18 samples.

Results

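SPARC, GAS6, PODNL1, PXDN and KIRREL3 are genes of the extracellular matrix and of cell adhesion that held RNA peaks of the MYC mutant 7A where wild-type MYC had none. They were chosen as the secreted, matrix or adhesion genes of a list whose RefSeq span is overlapped, by at least 1 bp, by a 7A peak that meets no wild-type peak. These 5 genes are among 59716 placed genes, of which 69 were overlapped by any 7A peak and 45 by a 7A peak off wild-type peaks. Of the 88 peaks called for 7A, 58 lay off wild-type peaks, and 9 of those 58 fell in the 5 genes. The genes were thus selected on measured values, the positions of peaks in the 7A and wild-type lists, and their having such 7A peaks is a description and not a finding. For comparison, a 7A peak off wild-type peaks overlapped 0.16% of protein-coding genes.

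RNA joined to MYC was mapped by eCLIP, enhanced crosslinking and immunoprecipitation, in which ultraviolet light joins protein to RNA in living cells and the RNA precipitated with the protein is sequenced. All cells were U2OS, a human osteosarcoma line, lacking endogenous MYC and carrying a Tet-On, FLAG-tagged MYC. The groups used were MYC-7A, MYC-3A and wild-type MYC, each induced with 1 µg/mL doxycycline for 24 h. Each has 2 precipitated libraries and 1 deposited peak list, and how the list was made from the libraries is not stated in the sources. The residues changed in 3A and 7A, and whether a line is 1 clone, are not given in the labels. There were 88 peaks for 7A, 103 for 3A and 2149 for wild type. Sequencing depth is unknown, there are no values per replicate, and uninduced cells were not analysed here. No test was therefore made, and all values describe these lists. Peak lists hold no expression levels, so the cell label could not be checked by levels. Of 8 osteoblast and mesenchymal genes, 1 held a peak, VIM in the wild-type list, and none of 5 epithelial and blood genes did. The VIM peak was weak, with a fold enrichment of 1.97 that ranked 2142 of 2149. Wild-type peaks overlapped 6.78% of protein-coding genes, so these small counts do not bear on the cell label.

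The products of these genes act outside the cell or at its surface. SPARC is a collagen-binding matricellular glycoprotein that is abundant in bone and was first named osteonectin. GAS6 is a vitamin K-dependent secreted ligand of the receptor kinases TYRO3, AXL and MERTK. PODNL1 belongs to the small leucine-rich proteoglycans, proteins that mostly bind collagen fibrils. PXDN, or peroxidasin, is a secreted heme peroxidase that crosslinks collagen IV of basement membranes. KIRREL3 is a transmembrane adhesion protein of the immunoglobulin superfamily, related to nephrin. MYC itself is known as a transcription factor that binds DNA with its partner MAX, and here only RNA joined to it was mapped.

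GAS6 carried the broadest signal of the 5 genes. The gene (gene ID 2621) lies on the minus strand of chromosome 13, from 113820549 to 113864076 in hg38, a span of 43.5 kb. Its first 7A peak in the direction of transcription ran from 113859546 to 113861986 and was 2441 bp wide, rank 3 of 88 by width. That peak had a −log10 q of 72.2 and a fold enrichment of 14.91, the authors' ratio for the peak, whose control is not named in the sources. The peak after it, 113857751 to 113858432, was 682 bp wide, enriched 14.07-fold, with a −log10 q of 63.3. Both peaks were near the start of the gene, with summits 4297 and 5912 bp from it. The 1113 bp between them held no peak. Together they covered 3123 bp, or 7.17% of the gene, the highest share among the 5.

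PODNL1 had the most peaks, 3 within 1678 bp. The gene (gene ID 79883) spans 13931187 to 13953383 on the minus strand of chromosome 19. Its peaks lay at 13935374 to 13935937, at 13935112 to 13935250 and at 13934260 to 13934536. Fold enrichments were 12.91, 8.83 and 12.56 in that order, and −log10 q was 23.0, 18.8 and 26.8. The middle peak, the narrowest at 139 bp, was also the weakest by both measures. The summits lay between 80.9% and 85.4% of the way along the gene. RefSeq also gives PODNL1 an inner start at 13938417, and the summits lay 2988, 3237 and 3990 bp downstream of that start.

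SPARC had 2 peaks near its far end. The gene (gene ID 6678) spans 151661096 to 151686915 on the minus strand of chromosome 5. One peak, 151664056 to 151664163, was enriched 4.10-fold with a −log10 q of 20.2, and the other, 151662483 to 151662630, was enriched 5.63-fold with a −log10 q of 21.1. These were the lowest fold enrichments of the 9 peaks. The summits stood 3045 and 1463 bp from the end of the gene, at 88.2% and 94.3% of its length. By fold enrichment the SPARC peaks ranked 72 and 66 of 88, and by −log10 q they ranked 46 and 44.

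PXDN and KIRREL3 had 1 peak each, deep inside long genes. PXDN (gene ID 7837) spans 113.0 kb on the minus strand of chromosome 2, from 1631887 to 1744901. Its peak from 1678766 to 1679060 was 295 bp wide, enriched 16.06-fold (rank 19), with a −log10 q of 31.6 (rank 31). The summit lay 66009 bp from the start of the gene, at 58.4% of its length, and 65623 bp from the inner start that RefSeq's promoter window marks. KIRREL3 (gene ID 84623) is the longest of the 5, with 580.0 kb on the minus strand of chromosome 11 from 126423358 to 127003394. Its peak from 126798837 to 126799137 was 301 bp wide and covered 0.0519% of the span. It had the highest fold enrichment of the 9, 16.97, and ranked 16 of 88 both by that value and by −log10 q (57.3). The summit was 204451 bp from the gene start. The span of KIRREL3 also holds 9 other annotated genes, among them the microRNA gene MIR3167 and 4 KIRREL3 antisense genes, and the peak overlapped none of them. The other 8 peaks likewise overlapped no second annotated gene. Exons were not in the annotation used here, so whether a peak is exonic or intronic is not stated.

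**Figure D1:**
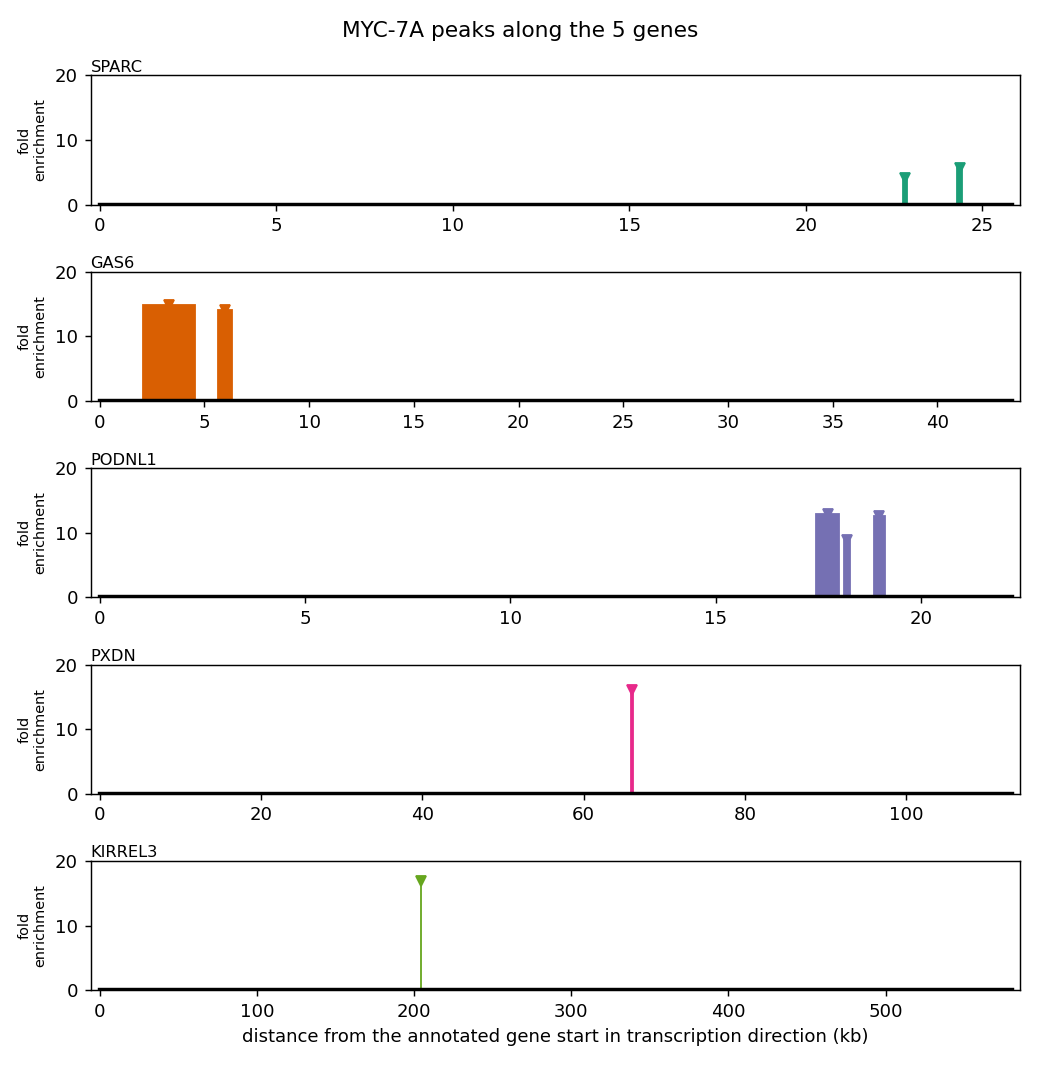
Each panel is a gene drawn from its annotated start in the direction of transcription (x axis, distance in kb, a separate scale for each gene), with 7A peaks as bars whose width is the peak width (thin bars are drawn with an outline so that they can be seen), whose height is the authors' fold enrichment and whose top centre bears a triangle. GAS6 peaks sit within 10 kb of the start, PODNL1 and SPARC peaks in the last part of the gene, and the single PXDN and KIRREL3 peaks far from both ends.

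On the strand of the peaks, the 5 genes were uniform. All 9 peaks lay on the minus strand, and all 5 genes are annotated on it, so every peak was in the sense direction. Sense placement was common in all lists and does not set these genes apart. Among the other 49 7A peaks off wild-type peaks, 24 of the 26 whose host gene has a known strand were sense (92.3%), and in the wild-type list 1554 of 1615 were (96.2%). Of those 49 peaks, 21 lay on the minus strand (42.9%), as did 1064 of the 2149 wild-type peaks (49.5%). The host is the shortest gene around the summit.

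Within the 7A list the 5 genes spanned a wide range of strength. Of their 9 peaks, 6 were at or above the list's median fold enrichment of 9.76 and 7 at or above its median −log10 q of 20.8. The exceptions by fold enrichment were both SPARC peaks and the middle PODNL1 peak, and those by −log10 q were the middle PODNL1 peak and the weaker SPARC peak. The median fold enrichment was 12.91 over the 9 peaks, 10.23 over the other 49 7A peaks off wild-type peaks and 6.76 over the 30 on wild-type peaks. The 2 measures ordered the genes differently. By best fold enrichment the order was KIRREL3, PXDN, GAS6, PODNL1 and SPARC, and by best −log10 q it was GAS6, KIRREL3, PXDN, PODNL1 and SPARC. Fold enrichments of different lists were not compared.

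**Figure D2:**
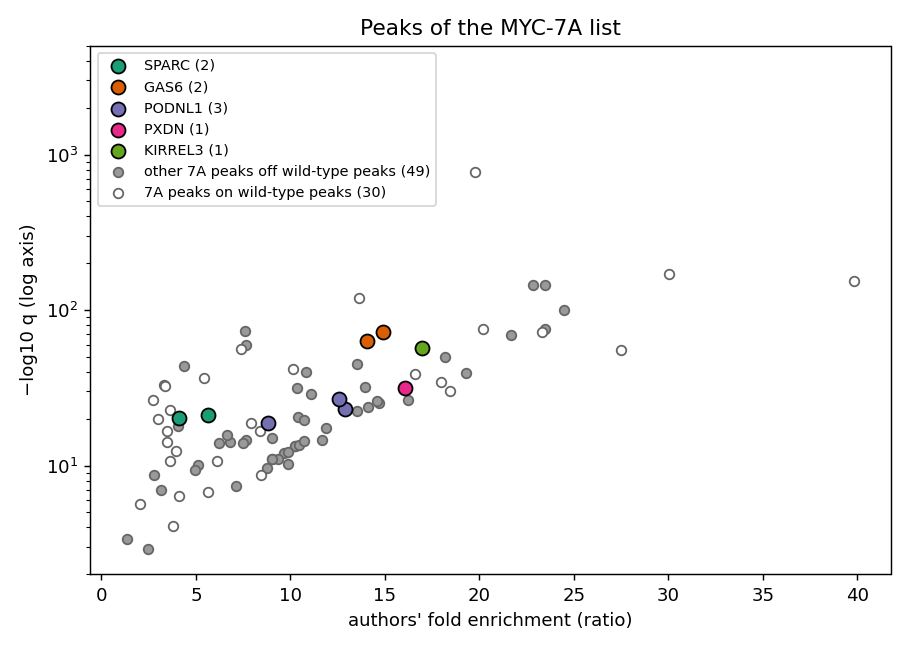
Each point is 1 of the 88 peaks of the 7A list, by the authors' fold enrichment (x axis, ratio) and −log10 q (y axis, log scale), with the 5 genes in colour, other 7A peaks off wild-type peaks in grey and those on wild-type peaks in white. The GAS6 and KIRREL3 points lie at −log10 q from 57.3 to 72.2, while the SPARC points have fold enrichments of 4.10 and 5.63 at −log10 q of 20.2 and 21.1.

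The peaks of the 5 genes ranged in width from 108 bp at SPARC to 2441 bp at GAS6, with a median of 295 bp. The other 7A peaks off wild-type peaks had a median of 208 bp, those on wild-type peaks 130.5 bp, the 3A list 171 bp and the wild-type list 165 bp. Of the 9 peaks, 3 were wider than 400 bp (33.3%), both GAS6 peaks and 1 PODNL1 peak, against 14 of the other 49 (28.6%) and 126 wild-type peaks (5.86%). The 9 peaks covered 4955 bp, which is 12.9% of all bases in the 7A list, for 10.2% of its peaks. Peaks in the same gene lay close together: gaps were 1425 bp at SPARC, 1113 bp at GAS6, and 123 and 575 bp at PODNL1. Neighbouring peaks can be parts of 1 region, and joining peaks of a gene within 2000 bp of each other left 5 regions, 1 in each gene.

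**Figure D3:**
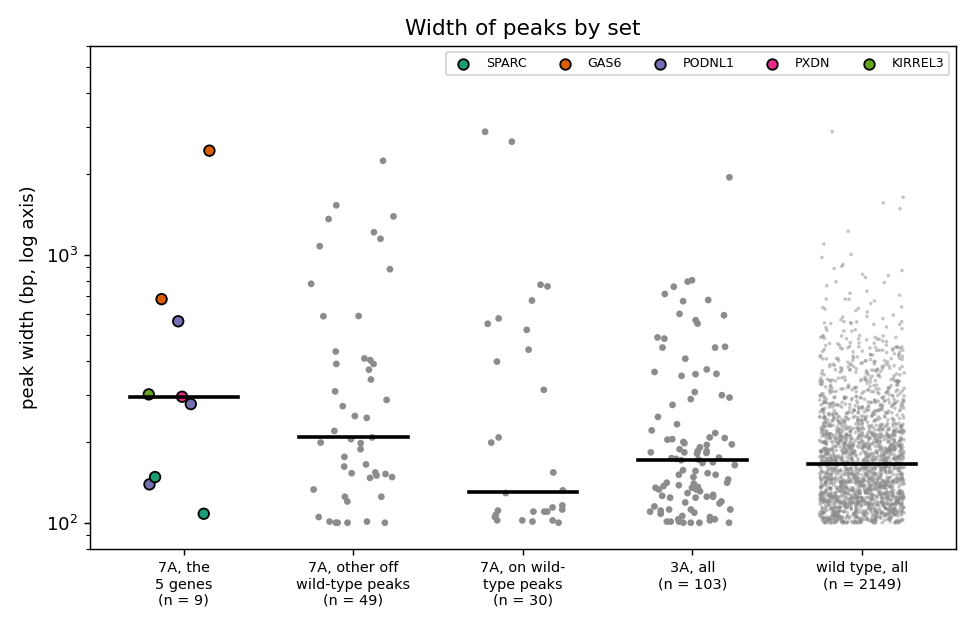
Peak width in bp (y axis, log scale) is shown for the 9 7A peaks of the 5 genes, the other 7A peaks off wild-type peaks, the 7A peaks on wild-type peaks, all 3A peaks and all wild-type peaks, 1 point per peak with a line at the median. The coloured points run from 108 to 2441 bp, and their median of 295 bp stands above the medians of the other sets, with overlapping ranges.

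Positions along the genes were spread, and none of the summits was at a gene start. Both GAS6 summits fell within the first 20% of the gene, and the 5 summits of SPARC and PODNL1 within the last 20%. None lay within 500 bp of the start, nor did any of the 41 other 7A summits off wild-type peaks that had a host gene. In the 7A peaks on wild-type peaks 8 of 27 did (29.6%), in the 3A list 46 of 97 (47.4%) and in the wild-type list 959 of 2121 (45.2%). Peaks of the 5 genes and the other 7A peaks off wild-type peaks were thus both absent from the first 500 bp. Both sets were chosen for not meeting wild-type peaks, which are frequent there, so the rule itself tends to leave out peaks near starts. The absence is therefore a description and not a finding about these genes.

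**Figure D4:**
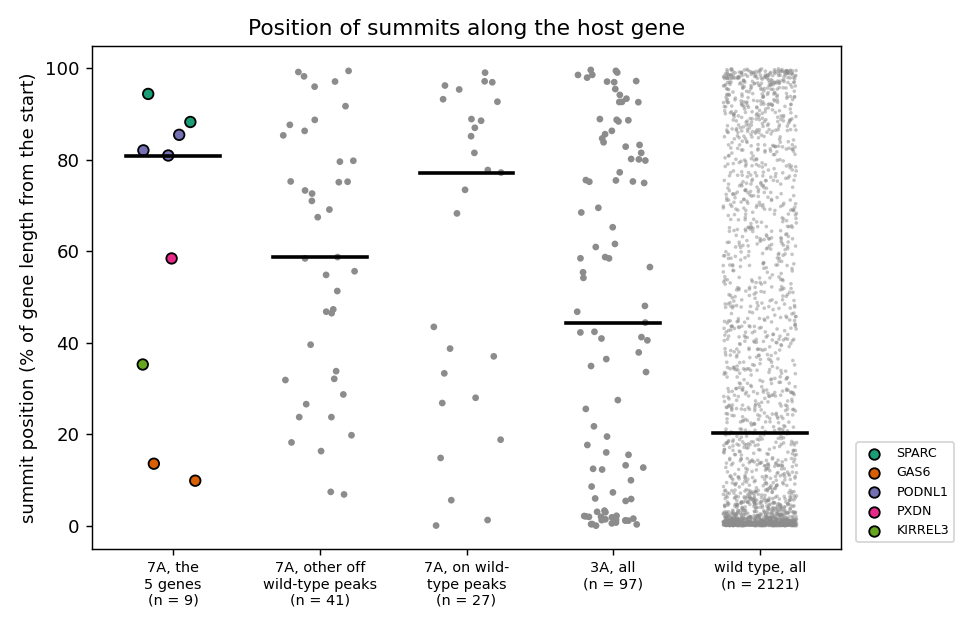
The position of each summit along its host gene is given in percent of gene length from the start (y axis), for the same 5 sets of peaks, with a line at the median. SPARC and PODNL1 points lie above 80%, PXDN and KIRREL3 points at 58.4% and 35.2%, and GAS6 points below 20%, while wild-type points crowd near 0 with a median of 20.3%.

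The annotated starts of the 5 genes were compared with the peaks through RefSeq windows of 250 bases before to 50 bases after each start (GRCh38.p14). There are 6 such windows, since PODNL1 has an outer and an inner start, and no peak of any list overlapped one. In the whole lists, 3 of 88 7A peaks (3.41%), 14 of 103 3A peaks (13.6%) and 440 of 2149 wild-type peaks (20.5%) overlapped such a window of some gene. CACGTG, the E-box that MYC and MAX bind in DNA, was in none of the 6 windows and is in 7.26% of the 35116 windows on the chromosomes. The looser form CANNTG, which includes CACGTG and reads the same on both strands, was in 5 of the 6 and is in 68.7% of all. The absence of these letters from the windows says nothing of binding elsewhere. Below are 3 windows, with every CANNTG in capitals: those of GAS6 and of the inner start of PODNL1, the starts that lie nearest upstream of peaks, and that of PXDN, which holds the most CANNTG words, 3. They are written 5′ to 3′ on the minus strand, from RefSeq. GAS6 is chr13:113864027-113864326, PODNL1 is chr19:13938368-13938667 and PXDN is chr2:1744466-1744765.
GAS6: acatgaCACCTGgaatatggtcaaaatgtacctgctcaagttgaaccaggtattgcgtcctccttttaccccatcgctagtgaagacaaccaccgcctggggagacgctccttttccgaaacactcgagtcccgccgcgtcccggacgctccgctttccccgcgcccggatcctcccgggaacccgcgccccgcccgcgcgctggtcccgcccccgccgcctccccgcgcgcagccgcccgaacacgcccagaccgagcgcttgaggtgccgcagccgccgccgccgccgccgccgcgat
PODNL1: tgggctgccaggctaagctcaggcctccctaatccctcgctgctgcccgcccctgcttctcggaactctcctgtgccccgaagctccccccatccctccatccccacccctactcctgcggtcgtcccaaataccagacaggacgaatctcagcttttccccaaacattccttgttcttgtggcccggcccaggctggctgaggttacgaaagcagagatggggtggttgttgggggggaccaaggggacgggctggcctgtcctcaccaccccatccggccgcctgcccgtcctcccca
PXDN: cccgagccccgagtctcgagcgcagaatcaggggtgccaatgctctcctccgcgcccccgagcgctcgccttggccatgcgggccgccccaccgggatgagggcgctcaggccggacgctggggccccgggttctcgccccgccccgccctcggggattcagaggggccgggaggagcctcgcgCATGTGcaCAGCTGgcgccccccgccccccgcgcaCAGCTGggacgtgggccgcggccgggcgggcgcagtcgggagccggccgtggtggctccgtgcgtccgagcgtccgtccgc
The GAS6 window is 69.0% G and C, the inner PODNL1 window 64.3% and the PXDN window 78.3%. The other windows were 61.3% at SPARC, 62.3% at the outer PODNL1 start and 69.7% at KIRREL3, and the median of all windows is 58.7%. The RNA sequences under the peaks themselves were not read here.

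None of the 5 genes held a 3A or a wild-type peak anywhere in its span, nor within 1000 bp of it. Protein-coding genes held a 7A peak in 0.269% of cases, a 3A peak in 0.359% and a wild-type peak in 6.78%, so 0 of 5 is close to the background in the 3A and wild-type lists and is not a result about these genes. The 7A share, which the rule used, is given as background only. Counted by peaks, 11 of the other 49 7A peaks off wild-type peaks met a 3A peak (22.4%), and none of the 9 did. This difference was not tested. The nearest wild-type peaks were far away, from 139.8 kb at SPARC (in G3BP1, a stress granule protein gene) to 1840.3 kb at PXDN (in ADI1). For PODNL1 the nearest was in SAMD1, from 153.2 kb, for GAS6 in CUL4A, from 648.0 kb, and for KIRREL3 in EI24, at 1229.2 kb. The rule's limit of 1 bp of overlap was thus not close for any of the 9 peaks. Among all 58 7A peaks off wild-type peaks, the one closest to a wild-type peak was 67 bp from it, outside annotated genes on chromosome 21. In the 3A list the nearest peak to a member was 6917.2 kb from the PXDN peak, and chromosome 13 had none.

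The 5 genes were set beside related matrix and adhesion genes, 211 genes in 10 lists, all matched in RefSeq. The other 206 held no 7A peak and no 3A peak. Wild-type peaks overlapped 5 of the 211 (2.37%, against 6.78% of protein-coding genes), all of them outside the 5. When peaks below the list's median fold enrichment were left out, 2 of the 211 remained. The share of protein-coding genes at that cut was not computed, so the lower count has no background beside it. In the SPARC family, 1 of 8 genes held a 7A peak, SPARC, and 1 a wild-type peak, SPOCK3, which encodes a secreted proteoglycan. The SPOCK3 peak was in the sense direction, with a fold enrichment of 38.3 that ranked 6 of 2149. Its summit lay at 72.0% of the gene.

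Among the 7 genes of the GAS6 pathway, GAS6 alone held a 7A peak. The receptor genes TYRO3, AXL and MERTK and the related ligand gene PROS1 held none in any list. GGCX, which encodes the enzyme that carboxylates vitamin K-dependent proteins such as GAS6, was overlapped by a wild-type peak (fold enrichment 5.30), but that peak was on the opposite strand and its host was MAT2A. Of 17 small leucine-rich proteoglycan genes PODNL1 alone held a peak. Of 24 heme peroxidase and collagen-modifying genes PXDN alone did, and of 36 KIRREL, nephrin and other immunoglobulin adhesion genes KIRREL3 alone did. None of the listed collagen (27), integrin (20) or cadherin (13) genes held a peak of any allele. Among all protein-coding genes, 0.269% held a 7A peak, 0.359% a 3A peak and 6.78% a wild-type peak. The cadherin list does not cover the whole family. CDH24, a cadherin gene outside that list, was the host of a wild-type peak. Likewise, the neural adhesion gene NTM is outside the immunoglobulin adhesion list and held a 7A peak (fold enrichment 10.34). Of 11 laminin genes, LAMC1 (4.70) and LAMC3 (18.17) held a wild-type peak at their starts, with summits 143 and 130 bp from them (for LAMC3 by the strand of the peak). EMILIN2 (7.18) was the only 1 of 48 matrix glycoprotein genes with a peak, also wild type. The 5 genes were chosen for their 7A peaks, so the 7A counts per list follow from that choice.

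The absence of 3A and wild-type peaks was shared with other genes. In all, 33 genes held a 7A peak and neither a 3A nor a wild-type peak, 20 of them protein-coding (0.0998% of protein-coding genes). The count is of annotated genes, and some overlap and share a peak. DIP2C and LOC124902362 share one (rank 45), as do MALAT1 and TALAM1 (rank 88). Of the 33, 6 had more than 1 peak, and 3 of these 6 were SPARC, GAS6 and PODNL1. The others were LINC00898, TAFA5 and LOC124900480, of which TAFA5 and LOC124900480 overlap and share the same peaks. By rank of the best 7A peak among these genes, the neighbours of KIRREL3, PXDN and GAS6 (ranks 16, 19 and 20) were TAFA5 above, at rank 4 with a fold enrichment of 24.46, and LINC00898 below, at rank 21 with 14.7. Those of PODNL1 (rank 29) were PEPD (rank 25, 13.94) and MCM5 (rank 31, 11.9). Those of SPARC (rank 66) were GSE1 (rank 63, 6.24) and the annexin pseudogene ANXA2P2 (rank 69, 4.95). Likeness here rests on presence in 3 lists and on rank in 1. Other genes of secreted or adhesion proteins also held 7A peaks alone, among them TAFA5, which encodes a secreted chemokine-like protein (fold enrichment 24.46, above all of the 5 genes), the chemokine gene CXCL14 (2.45), the neurotrophin gene NTF3 (9.85) and the neural adhesion gene NTM (10.34). They are not in the list that defines the 5 and were picked out after their values were seen.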

How the data were processed

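The titles gave each sample its allele, its treatment and whether it was input or precipitate, and each peak list was tied to its group by allele and treatment. Per the submitters' processing notes, cutadapt, BWA and MACS2 were used with the build hg38. Not given in the sources used here are their roles, versions and settings, the control, and any pooling of replicates. Each deposited peak has a fold enrichment (a ratio) and a −log10 q value, and the summit's offset from the peak start in bp is another deposited column. The deposited scores and −log10 p were not used.

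Coordinates were made 1-based. Peaks were assigned to RefSeq gene spans (GRCh38.p14, 59716 placed genes) by at least 1 bp. Strand was known for genes with a promoter window, otherwise the peak's strand gave the position along the gene. Ranks are within a list. Gene assignment was tested on simulated data. Python 3.11.15, pandas 2.3.3, NumPy 2.4.6 and matplotlib 3.10.9 were used. The 5 genes and all lists were chosen with earlier results of these data known. Genes named are the 5, up to 6 genes with a peak per list, neighbours in rank, and hosts of the nearest wild-type peaks. CDH24, which is in none of the lists, is named as well. Alternatives were stricter peaks, the summit alone, longer gene spans, other overlaps, ranks by −log10 q and joined peaks. Depth per sample is unknown.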

Additional observations from a re-analysis of the deposited data

How the results depend on the processing

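Of 70 alternative values of 16 results, 59 equalled the main value or, for counts, were within 1.5 times of it, and 11 moved. Several of the 59 could not have moved, as set out below, so their number does not measure stability. Reversals were not assessed. The best rank of SPARC had no value when peaks below the median fold enrichment were left out, and that loss is not among the 70. The 5 genes held no 3A and no wild-type peak in the main setting. None was left with a −log10 q of at least 5 or with column 7, the fold enrichment, at or above the list median. None was left with the summit in the gene either. These settings only remove peaks, so they could give no other result. Spans extended by 1000 bp could have added a peak and added none. Stricter or same-strand overlap could likewise add no 3A or wild-type overlap to the 9 peaks. Nor could counting peaks within 500 bp, since the nearest wild-type peak was 139.8 kb away and the nearest 3A peak 6917.2 kb. Joining peaks of a gene within 2000 bp took the 7A peaks of the 5 genes to 5 and their median width to 1678 bp, by construction. Leaving out peaks below the median fold enrichment of their list kept 6 of the 9 peaks and no SPARC peak, with a median width of 432.5 bp, a median best rank of 19.5 in place of 20, and 6 in place of 10 listed genes with a peak in any list (4 in place of 5 with a 7A peak and 2 in place of 5 with a wild-type peak). Ranked by −log10 q, the median best rank was 31. No paired analysis was possible because the deposited lists give 1 value per peak and allele, and leaving out a replicate was likewise not possible.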
